A study of Mus musculus with 6 samples.

Results

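Intergenic lncRNA genes that were assembled with several isoforms were compared between spermatogonial stem cells (SSCs) of the mouse testis and germline stem cells of the mouse ovary (FGSCs). The members were transcripts with class code u, the Cuffcompare code for a transcript that lies outside the annotated genes, on the autosomes. Their gene identifier had to occur in at least 2 lines of the table, and their exact locus in fewer than 4. These conditions held for 588 transcripts of 277 genes, among 18573 lncRNA transcripts of 17293 genes in all. They made up 3.68% of the 15982 intergenic transcripts and 1.89% of the 14629 autosomal intergenic genes. Isoform shares could be calculated in the 262 genes that kept at least 2 member transcripts (213 with 2 isoforms and 49 with 3). The remaining 15 genes had 1 member transcript beside transcripts of another class.

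Ribosomal RNA was removed from total RNA, and strand-specific libraries were sequenced from 3 SSC and 3 FGSC samples. SSCs came from the testes of 3- to 5-day-old mice and FGSCs from the ovaries of 6-day-old mice according to the sample labels, whereas the methods of the study give these ages the other way round. The labels name the strain C57BL/6. According to the methods, both cell types came from pooled Ddx4-Cre; mT/mG mice, in which Cre driven by the germ cell gene Ddx4 turns a membrane reporter from tdTomato to EGFP, and GFP-positive cells were sorted and then selected by binding to laminin. The table gives 1 FPKM value (fragments counted on a transcript, scaled to its length and to the size of the library) per transcript and cell type, calculated by the authors over the libraries of that cell type. Values of single libraries were not analysed here, so no replicate error or SD is given, no test was run, and all differences are descriptions of these values. The number of reads behind a value is not given in the table. The table holds lncRNAs and no mRNAs, so the labelled cell types were not checked against marker genes. In bulk samples fewer cells of a type and less RNA per cell cannot be told apart.

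SSCs are the cells of the testis that renew themselves and give rise to spermatogenesis, and FGSCs are mitotically active germ cells isolated from the postnatal ovary. A long noncoding RNA gene, like a coding gene, can produce different isoforms by alternative start sites, splicing and polyadenylation. Some intergenic lncRNAs are transcribed away from the promoter of a neighbouring coding gene, and such promoters are often rich in CG dinucleotides. The end of a polyadenylated transcript is commonly preceded by the polyadenylation signal AATAAA.

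Many of the loci that were measured in both cell types lay within 1 kb of the start of a coding gene or held such a start. Stretches of genome between a locus and such a start are printed here for a few of the named genes. All are from the plus strand of mm10, written 5′ to 3′ with CG in capitals. XLOC_005221 (chr10:127070554-127071644) and XLOC_037615 (chr3:129527463-129532207) were among the genes whose main isoform differed between the cell types. XLOC_025794 (chr17:74519664-74528255) was among these and was also among the 4 highest genes in FGSCs. XLOC_029395 (chr19:60753780-60755724) and XLOC_007958 (chr11:84513749-84516774) were the members within 10 kb of a gene of the germ cell list used here, Nanos1 and Lhx1. The sum of XLOC_007958 was under 0.5 FPKM in SSCs, so it was not among the loci measured in both cell types.
XLOC_005221 to the start of Tspan31, chr10:127070265-127070553: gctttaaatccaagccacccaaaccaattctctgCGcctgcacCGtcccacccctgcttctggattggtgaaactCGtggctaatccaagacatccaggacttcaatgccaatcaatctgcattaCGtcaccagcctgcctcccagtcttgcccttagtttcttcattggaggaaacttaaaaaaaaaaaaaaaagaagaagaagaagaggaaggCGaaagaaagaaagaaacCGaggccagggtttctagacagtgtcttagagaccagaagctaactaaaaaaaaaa
XLOC_007958 to the start of Aatf, chr11:84513523-84513748: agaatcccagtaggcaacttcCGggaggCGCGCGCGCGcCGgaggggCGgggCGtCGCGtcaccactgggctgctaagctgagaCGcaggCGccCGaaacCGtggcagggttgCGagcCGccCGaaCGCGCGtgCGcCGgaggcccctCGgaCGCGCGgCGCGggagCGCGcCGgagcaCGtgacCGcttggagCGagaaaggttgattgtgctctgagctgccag
XLOC_025794 to the start of Birc6, chr17:74528256-74528294: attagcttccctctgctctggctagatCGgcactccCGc
XLOC_029395 to the start of Nanos1, chr19:60755725-60755986: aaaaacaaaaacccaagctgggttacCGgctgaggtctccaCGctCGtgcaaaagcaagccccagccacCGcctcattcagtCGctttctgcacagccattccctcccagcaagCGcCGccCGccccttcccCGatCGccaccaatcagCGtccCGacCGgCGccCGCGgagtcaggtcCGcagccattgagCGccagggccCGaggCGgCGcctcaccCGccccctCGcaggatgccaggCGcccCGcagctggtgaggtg
XLOC_037615 to the start of Elovl6, chr3:129532208-129532354: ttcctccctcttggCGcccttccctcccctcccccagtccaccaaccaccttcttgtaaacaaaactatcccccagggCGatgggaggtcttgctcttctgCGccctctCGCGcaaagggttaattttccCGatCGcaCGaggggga

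The stretches differed in CG content, from 2.08 CG per 100 bases before Tspan31 and 5.44 before Elovl6 to 9.54 before Nanos1 and 15.5 before Aatf. The polyadenylation signal was looked for in the 50 bases at each end of a locus, as AATAAA at the higher-coordinate end or TTTATT at the lower-coordinate end, because the table gives no strand. The forms are the signal on the plus and on the minus strand, and neither can overlap a CG. It was found at 5 of the 14 loci whose main isoform differed and at 4 of the 47 other loci compared. Over all 277 member loci it stood at 36 (13.0%), and at 10.3% of the other intergenic loci of at least 1 kb. The counts are small, the difference was not tested, and without strand or exons the motif cannot be assigned to an isoform. The 5 loci are printed with the motif in capitals.
XLOC_022056, chr16:85826724-85826773: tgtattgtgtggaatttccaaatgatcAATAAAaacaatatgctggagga
XLOC_025794, chr17:74519664-74519713: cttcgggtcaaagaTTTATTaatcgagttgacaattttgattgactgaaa
XLOC_037548, chr3:121564170-121564219: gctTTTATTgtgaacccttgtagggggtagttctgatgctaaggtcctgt
XLOC_037615, chr3:129527463-129527512: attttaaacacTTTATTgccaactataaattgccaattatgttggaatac
XLOC_045629, chr6:37442517-37442566: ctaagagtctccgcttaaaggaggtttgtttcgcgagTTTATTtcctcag

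Levels were low in both cell types and lower in SSCs. The median over the 588 member transcripts was 0.0887 FPKM in SSCs and 0.397 in FGSCs. In SSCs 147 of them (25%) were listed at 0, against 32 (5.44%) in FGSCs, beside 18.9% of all transcripts of the table in SSCs and 7.16% in FGSCs, and a further 54 in SSCs and 16 in FGSCs were above 0 but under 0.01 FPKM. The 14140 autosomal intergenic genes with a single transcript had medians of 0.262 FPKM in SSCs, against 0.439 in FGSCs, so the isoforms of the multi-isoform genes stood below these single transcripts in SSCs and close to them in FGSCs. Summed over the isoforms of a gene, the median of the 262 genes was 0.277 FPKM in SSCs and 0.976 in FGSCs, and the highest gene reached 8.37 FPKM in SSCs, against 10.8 in FGSCs. A sum of at least 0.5 FPKM was found for 100 genes in SSCs and 212 in FGSCs. By this limit 39 genes were measured in SSCs alone, 151 in FGSCs alone, 61 in both and 11 in neither. SSCs alone thus made up 14.9%, beside 24.1% of the single-transcript intergenic genes, and FGSCs alone 57.6%, beside 32.3%. Both cell types made up 23.3%, beside 9.19%, and neither 4.20%, beside 34.4%, where the single-transcript values are not sums over isoforms. Genes with 3 isoforms had medians of 0.665 FPKM in SSCs and 1.16 in FGSCs, and genes with 2 isoforms 0.229 FPKM in SSCs, against 0.929 in FGSCs.

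**Figure D1:**
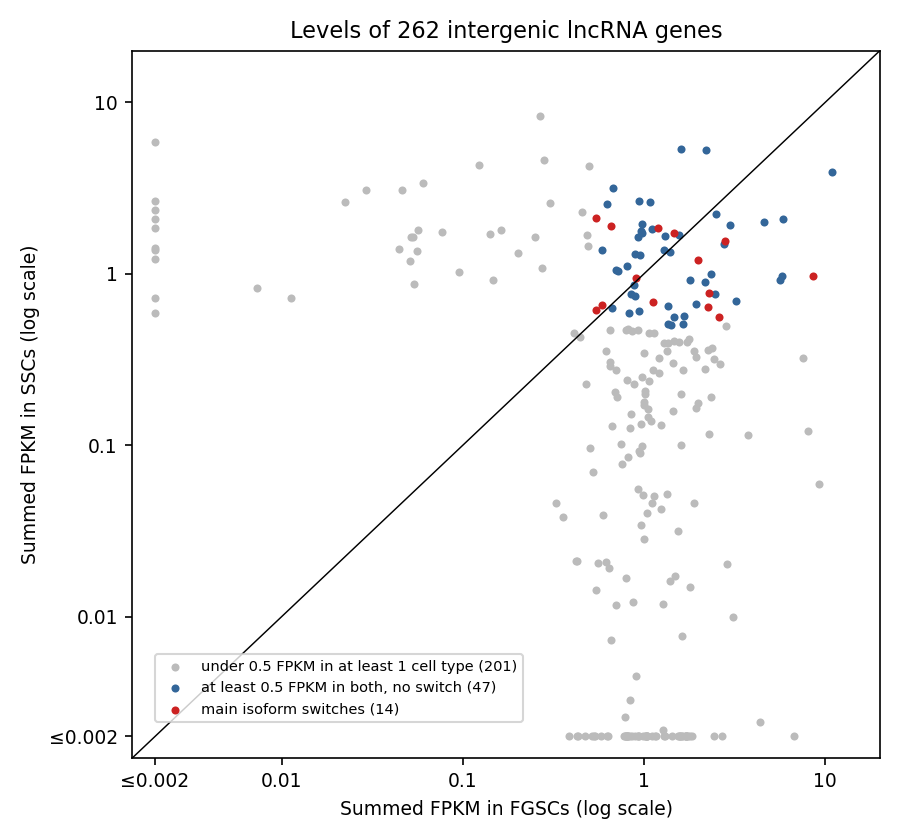
Summed FPKM of the isoforms of each of the 262 genes in SSCs (vertical axis) against FGSCs (horizontal axis), both on a log scale, with values at or under 0.002 drawn at 0.002. Each point is 1 gene and the line marks equal values: most points lie below it, and the 61 genes with at least 0.5 FPKM in both cell types, 14 of them with another main isoform, fill the upper right.

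The summed levels were compared as the log2 of SSCs over FGSCs after adding 0.5 FPKM to both sums, for genes with at least 0.5 FPKM in either cell type. Of 251 such genes, 45 (17.9%) were higher in SSCs by more than 1 on this scale, and 145 (57.8%) were higher in FGSCs by more than 1. Over all 11640 genes of the table that passed the same limit 23.4% were higher in SSCs and 31.1% in FGSCs. The share higher in FGSCs was thus above that of all genes and close to that of other multi-isoform genes: in the 415 other genes with at least 2 transcripts it was 52.8%, with 17.8% higher in SSCs. Locus length went along with it. Among intergenic genes with a single transcript, 32.5% of those at loci of at least 1 kb and 39.8% of those at loci of at least 5 kb were higher in FGSCs, and 15.5% of the first and 18.2% of the second were higher in SSCs. Within the multi-isoform genes the share was 55.0% at loci under 5 kb and 60% at longer loci, and the part of length and of the number of isoforms in the difference was not tested. The median log2 value was −1.10 in the multi-isoform genes and −0.41 over all genes. The median FPKM over all 18573 transcripts was 0.251 in SSCs and 0.442 in FGSCs, a shift of −0.81 on the log2 scale. With these medians made equal, 54 of 235 genes were higher in SSCs and 93 in FGSCs by more than 1, against 38.5% of all genes higher in SSCs and 18.5% in FGSCs. With quantile normalization 48 were higher in SSCs and 90 in FGSCs, against 29.5% of all genes higher in SSCs and 22.8% in FGSCs.

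The genes with the highest sums and those with the largest log2 values overlapped. XLOC_016570 (chr14:27114851-27153277) had the highest sum in SSCs, and its locus overlapped Arhgef3, which encodes a guanine nucleotide exchange factor. It had 8.37 FPKM in SSCs, against 0.266 in FGSCs (log2 value 3.53). TCONS_00043936 had 5.96 FPKM in SSCs, against 0.0469 in FGSCs, and TCONS_00043935 had 2.42 FPKM in SSCs, against 0.219 in FGSCs. Both isoforms were higher in SSCs, the first by more, so that TCONS_00043936 made up 71.1% of the sum in SSCs and 17.6% of the small sum in FGSCs. XLOC_028089 (chr19:20492175-20495756) overlapped the annotated lncRNA C730002L08Rik and Aldh1a1, a gene for a retinoic acid-synthesizing enzyme. Its isoforms had 4.01 and 1.88 FPKM in SSCs and were both listed at 0 in FGSCs. XLOC_042578 (chr5:73946350-73949328), which overlapped the annotated lncRNA C78283, had 4.31 FPKM in SSCs, against 0.123 in FGSCs (log2 value 2.95). Its leading isoform in SSCs, TCONS_00113687, had 3.00 FPKM there and 0.0271 FPKM in FGSCs.

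XLOC_057774 (chr9:118355177-118374672) had nearly even isoforms in SSCs. It lay 103540 bp from Eomes, a T-box transcription factor gene, with no annotated lncRNA at its locus. Its isoforms had 1.72 and 1.66 FPKM in SSCs and 0.0442 and 0.0162 FPKM in FGSCs, and the sum was 3.38 FPKM in SSCs and 0.0604 in FGSCs (log2 value 2.79).

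On the side of FGSCs, XLOC_029200 (chr19:43425775-43427872) had the highest sum of all 262 genes. It lay 12564 bp from Cnnm1, which encodes a protein of the cyclin M family of metal transport mediators. Its sum was 3.93 FPKM in SSCs, against 10.8 in FGSCs (log2 value −1.36, and −0.60 with equal medians), and the same isoform, TCONS_00075695, made up 89.0% of it in SSCs and 84.4% in FGSCs. It was thus a gene that was high in both cell types with nearly the same isoform shares. XLOC_017386 (chr14:70790458-70805025), 11963 bp from the adaptor protein gene Dok2, had 0.0593 FPKM in SSCs, against 9.23 in FGSCs (log2 value −4.12). Of its isoforms, TCONS_00045710 was listed at 0 in SSCs and had 6.65 FPKM in FGSCs. TCONS_00045711 had 0.0593 FPKM in SSCs, against 2.57 in FGSCs.

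Another 3 genes had at most 0.323 FPKM in SSCs and at least 6.72 FPKM in FGSCs. XLOC_032917 (chr2:72603120-72606438), which lay 116227 bp from the cell division cycle gene Cdca7, had 0.121 FPKM in SSCs, against 8.07 in FGSCs (log2 value −3.79), with FGSC values of 4.11, 2.26 and 1.70 FPKM for its 3 isoforms. XLOC_047757 (chr6:75967369-75972295) overlapped the annotated lncRNA Gm44113, and its isoforms were listed at 0 in SSCs and had 6.35 and 0.379 FPKM in FGSCs. No coding gene lay within 100 kb of it. XLOC_017578 (chr14:103113249-103360535) was the longest of the 277 member loci, 247287 bp, and overlapped Mycbp2, a gene for a ubiquitin ligase. It had 0.323 FPKM in SSCs, against 7.52 in FGSCs (log2 value −3.28), and 77.8% of its FGSC sum was in TCONS_00046125.

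**Figure D2:**
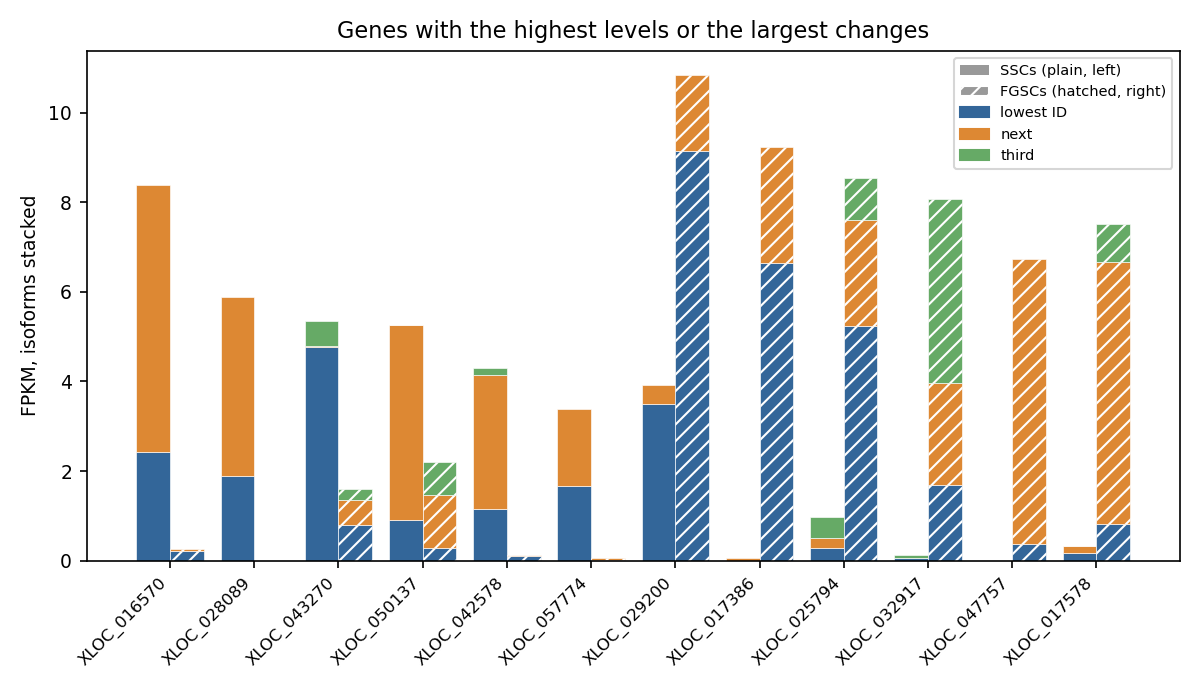
FPKM of the isoforms, stacked, for the genes with the 4 highest sums or 4 largest log2 values in each direction, with SSCs as the left plain bar and FGSCs as the right hatched bar of each pair. Colours give the isoforms in the order of their identifiers: the first 6 genes are higher in SSCs, up to 8.37 FPKM, and the last 6 in FGSCs, up to 10.8 FPKM.

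In most genes 1 isoform held the larger part of the sum without reaching all of it. The isoform share was the FPKM of an isoform divided by the summed FPKM of the intergenic isoforms of the gene in the same cell type, and the main isoform was the one with the largest share. In genes with at least 0.5 FPKM the main isoform held a median of 70.6% in SSCs (100 genes) and 64.4% in FGSCs (212 genes). Genes of the whole table with at least 2 transcripts had medians of 63.4% in SSCs and 60.0% in FGSCs, and they include genes with many isoforms. At the same number of isoforms the medians were close: with 2 isoforms 71.5% in SSCs and 66.3% in FGSCs, beside 71.3% in SSCs and 68.0% in FGSCs in the whole table. With 3 isoforms they were 54.0% in SSCs and 54.8% in FGSCs, beside 55.8% in SSCs and 53.6% in FGSCs. A main isoform of at least 90% was found in 14 genes in SSCs (14%) and 22 in FGSCs (10.4%), beside 11.7% in SSCs and 9.06% in FGSCs in the whole table. One under 60% was found in 31 genes in SSCs (31%) and 79 in FGSCs (37.3%), beside 44.2% in SSCs and 50.1% in FGSCs in the whole table.

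The main isoform was compared between the cell types in the 61 genes with at least 0.5 FPKM in both. A gene was counted as a switch when the main isoform was not the same and the share of at least 1 of the main isoforms differed by at least 25 percentage points. There were 14 switches (23.0%). Over all genes of the table with at least 2 transcripts the share was 22.2% (49 of 221), and at the intergenic loci with 4 or more transcripts it was 22.9% (11 of 48), so the share in the multi-isoform genes was that of the table. The main isoform was the same in 46 genes (75.4%), beside 100 of 157 (63.7%) of the other genes of the table with at least 2 transcripts. These other genes include genes with many isoforms. The largest difference in the share of a main isoform had a median of 24.2 percentage points in the 61 genes, beside 15.9 in the 157. In 14 of the 46 genes the share of the main isoform differed by under 10 percentage points. In another 14 of them it differed by at least 25 points without a change of the main isoform. Among genes with 2 isoforms 9 of 41 were switches, and among genes with 3 isoforms 5 of 20. Switches were found at 4 of 18 genes with at least 1 FPKM in both cell types, beside 20 of 95 other genes of the table. With at least 2 FPKM in both they were found at 0 of 5 genes, beside 7 of 41 other genes. The gene just outside the definition was XLOC_038423, with a largest difference of 21.9 points, and the gene just inside was XLOC_002280, with 30.1 points.

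**Figure D3:**
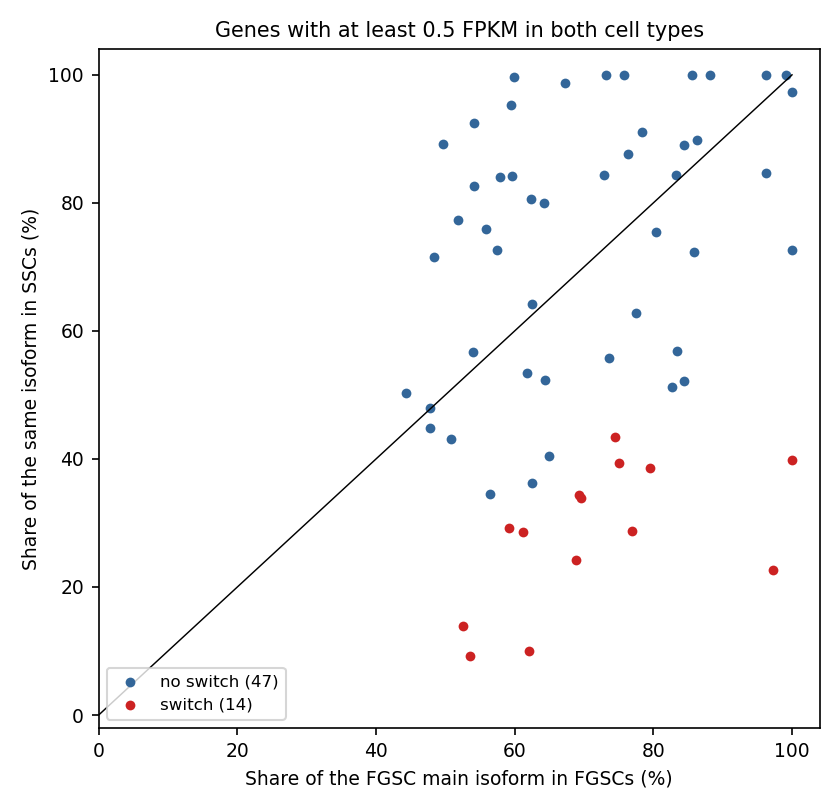
Share of the FGSC main isoform in FGSCs (horizontal axis, percent) and of the same isoform in SSCs (vertical axis, percent) for the 61 genes with at least 0.5 FPKM in both cell types, with the line marking equal shares. Each point is 1 gene: the 14 switches lie below the line, at SSC shares of 9.21% to 43.5%. For genes with 2 isoforms the definition of a switch itself places them there. The other 47 genes lie on both sides of the line.

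The largest switch was XLOC_050367 (chr7:110163883-110179890), 20597 bp from Wee1, which encodes a kinase that restrains entry into mitosis. TCONS_00135488 had 1.43 FPKM in SSCs, against 0.0322 in FGSCs, a share of 77.3% in SSCs and 2.70% in FGSCs. TCONS_00135489 had 0.419 FPKM in SSCs, against 1.16 in FGSCs. The isoforms thus stood in opposite order while the sums, 1.85 FPKM in SSCs and 1.19 in FGSCs, were within the 1 log2 unit used above (log2 value 0.47, and 1.08 with equal medians). XLOC_005221, which overlapped the annotated lncRNA A730063M14Rik 290 bp from the start of the tetraspanin gene Tspan31, had almost equal sums of 0.939 FPKM in SSCs, against 0.903 in FGSCs. Its TCONS_00014758 made up 60.1% of the sum in SSCs and 0.00246% in FGSCs, where TCONS_00014759 held nearly all.

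XLOC_056002 (chr8:107668120-107686135), 79656 bp from the proteasome subunit gene Psmd7, had sums of 1.73 FPKM in SSCs and 1.46 in FGSCs. Its TCONS_00150197 led in SSCs with 57.5% and held 0.205% in FGSCs, where TCONS_00150198 led with 76.9%, against 28.7% in SSCs. The third isoform led in neither cell type, but it held more of the FGSC sum than TCONS_00150197. XLOC_049538 (chr7:43267522-43279928), 16269 bp from the zinc finger gene Zfp715, had sums of 1.20 FPKM in SSCs, against 1.99 in FGSCs. TCONS_00133123 made up 89.9% in SSCs and 38.0% in FGSCs, with 1.08 FPKM in SSCs and 0.756 in FGSCs. The other isoform, TCONS_00133124, had 0.121 FPKM in SSCs, against 1.23 in FGSCs, so the FPKM of this isoform differed more than that of TCONS_00133123.

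XLOC_045629 (chr6:37442517-37448660), 371 bp from the start of Creb3l2, which encodes a membrane-bound transcription factor, had sums of 0.777 FPKM in SSCs and 2.27 in FGSCs. TCONS_00123058 led in SSCs with 60.2% and held 13.6% in FGSCs, although its FPKM values, 0.468 in SSCs and 0.310 in FGSCs, were close. TCONS_00123056 led in FGSCs, with 0.188 FPKM in SSCs, against 1.57 in FGSCs. XLOC_043872 (chr5:23698332-23700303) overlapped the annotated lncRNA AI506816, 13715 bp from Srpk2, the gene of a kinase of splicing factors. TCONS_00117469 had 1.73 FPKM in SSCs, against 0.305 in FGSCs, 90.8% of the sum in SSCs and 46.4% in FGSCs. Its partner TCONS_00117470 had 0.176 FPKM in SSCs, against 0.351 in FGSCs, so the FGSC shares were nearly even.

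XLOC_037615, 148 bp from the start of the fatty acid elongase gene Elovl6 and over the annotated lncRNA Gm35986, had sums of 2.13 FPKM in SSCs and 0.543 in FGSCs (log2 value 1.33). In SSCs TCONS_00099392 (41.7%) and TCONS_00099391 (38.6%) were near each other, and in FGSCs TCONS_00099391 held 79.6%. This main isoform in SSCs led by a small margin. XLOC_037548 (chr3:121564170-121578101), 31766 bp from the choline transporter-like gene Slc44a3, had the higher sum in FGSCs, with shares of 86.1% in SSCs and 47.4% in FGSCs for TCONS_00099204. Its sums were 0.644 FPKM in SSCs, against 2.26 in FGSCs (log2 value −1.27, and −0.70 with equal medians).

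The other 6 switches had differences of 30.1 to 37.5 points. At XLOC_025794, 40 bp from the start of Birc6, a gene for an inhibitor of apoptosis, TCONS_00067570 held 48.5% in SSCs and 11.0% in FGSCs, and TCONS_00067567 28.6% in SSCs and 61.3% in FGSCs. The sums were 0.970 FPKM in SSCs and 8.54 in FGSCs, so all 3 isoforms had lower values in SSCs. XLOC_019276 (chr15:40162592-40168277), over the annotated lncRNA Gm33301, had 1.56 FPKM in SSCs, spread over 3 isoforms at 33.9%, 26.2% and 39.9%, and 2.78 FPKM in FGSCs, where the first of these held 69.6%. XLOC_022056 (chr16:85809799-85826773), over the annotated lncRNA 4930556C24Rik and 6686 bp from Adamts1, a gene for a secreted protease that acts in ovulation, had 0.560 FPKM in SSCs, against 2.58 in FGSCs, with 65.7% in SSCs and 30.8% in FGSCs for TCONS_00057385.

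The 3 remaining switches had sums of 0.618 to 0.689 FPKM in SSCs and of 0.544 to 1.12 FPKM in FGSCs. XLOC_020734 (chr15:82954427-82956657) overlapped the transcriptional coregulator gene Tcf20, and its TCONS_00053839 held 60.7% in SSCs with 0.401 FPKM, against 0.147 FPKM in FGSCs, where the other isoform led with 75.0%. XLOC_005142 (chr10:117746807-117749774) lay 442 bp from the start of the solute carrier gene Slc35e3, with 56.5% in SSCs and 25.5% in FGSCs for TCONS_00014571. XLOC_002280 (chr1:36465366-36471343) lay 277 bp from the start of the magnesium transport gene Cnnm4, with 70.8% in SSCs and 40.8% in FGSCs for TCONS_00006320. Of all 14 switches, 2 were higher in SSCs by more than 1 log2 unit, 4 were higher in FGSCs and 8 were within 1 unit. With equal medians 3 were higher in SSCs, 1 in FGSCs and 10 within 1 unit. In 8 of them every isoform had the status OK, which marks transcripts with enough alignments for the authors' test.

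**Figure D4:**
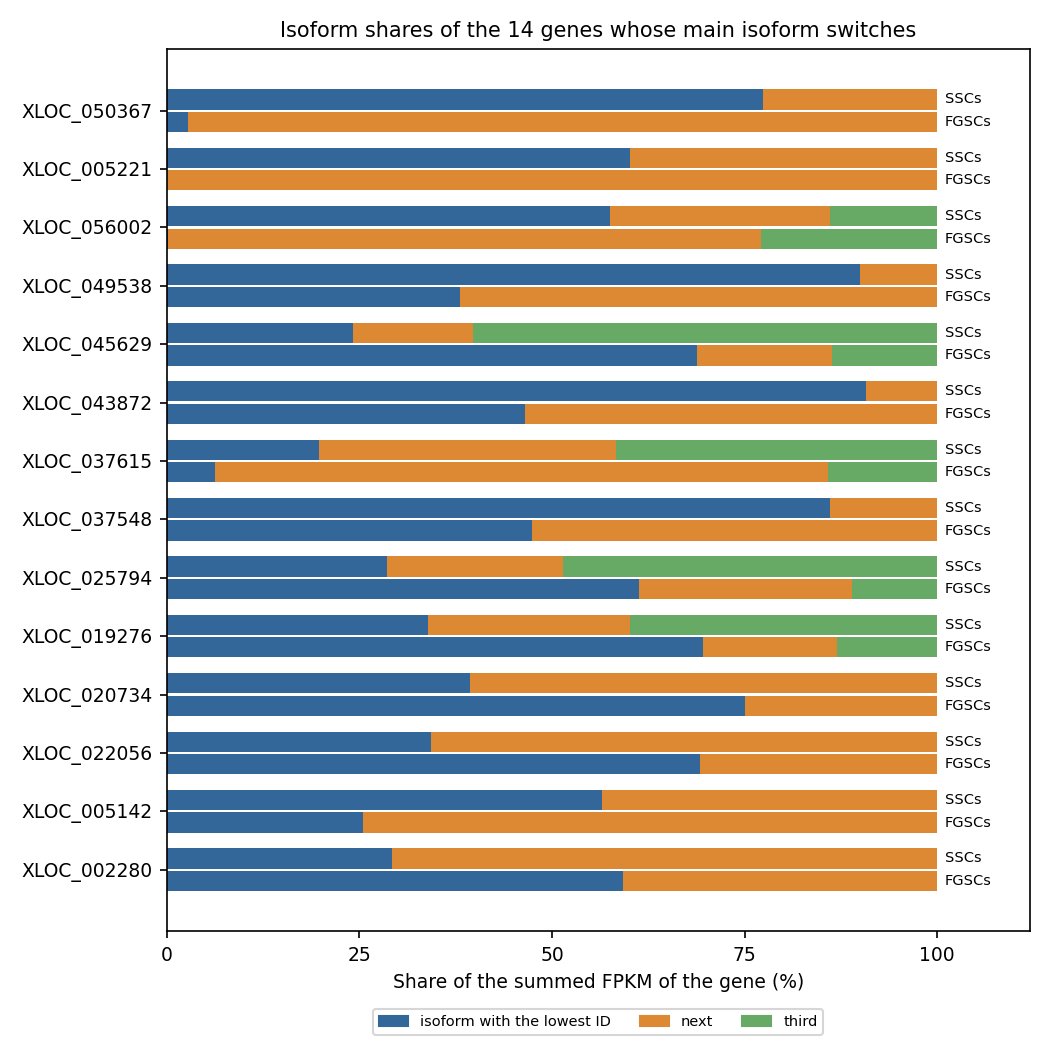
Isoform shares (percent of the summed FPKM of the gene, horizontal axis) of the 14 genes whose main isoform was not the same in SSCs (upper bar of each pair) and FGSCs (lower bar). Colours give the isoforms in the order of their identifiers, and genes are ordered from the largest difference, 74.6 percentage points at XLOC_050367, to the smallest, 30.1 points at XLOC_002280.

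The isoforms of a gene mostly lay on the same side. All isoforms were higher in SSCs by more than 1 log2 unit in 13 of the 262 genes, beside 4.16% of the genes of the table with at least 2 transcripts, and all were higher in FGSCs in 30, beside 10.2%. These were 4.96% and 11.5% of the genes. In 35 genes (13.4%) the isoforms lay on opposite sides of 0, beside 20.4% of the table, on the values as deposited. Isoforms past 1 log2 unit in opposite directions were found in 2 genes (0.763%), beside 1.25% of the table. The genes of the table include genes with many isoforms, and these shares were not compared at the same number of isoforms. At XLOC_050137 (chr7:101912984-101935000), a locus over Lamtor1, Lrrc51 and Numa1, TCONS_00135059 had 4.34 FPKM in SSCs, against 1.19 in FGSCs. TCONS_00135060 was listed at 0 in SSCs and had 0.732 FPKM in FGSCs. The first of these was the main isoform in both cell types, with 82.7% in SSCs and 54.1% in FGSCs, so this gene was no switch. At XLOC_043270 (chr5:125360874-125371906), over the annotated lncRNA Gm40323, TCONS_00115728 had 4.77 FPKM in SSCs, against 0.790 in FGSCs, and TCONS_00115729 0.0279 FPKM in SSCs and 0.563 in FGSCs. It too had the same main isoform in both, with 89.2% in SSCs and 49.6% in FGSCs.

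Only 5 genes had at least 1 FPKM in both cell types and at least 20% of the sum outside the main isoform in both. Of these, XLOC_019276 and XLOC_056002 were switches. The smallest difference in shares, 7.66 percentage points, was at XLOC_043984 (chr5:29186385-29195898), 94 bp from the start of the RING finger gene Rnf32. Its main isoform TCONS_00117752 held 43.1% in SSCs and 50.8% in FGSCs, with sums of 1.48 FPKM in SSCs, against 2.77 in FGSCs. XLOC_053025 (chr7:111119800-111122695), over the annotated lncRNA 1700012D14Rik, had 2.09 FPKM in SSCs, against 5.85 in FGSCs (log2 value −1.29, and −0.58 with equal medians), and its TCONS_00142366 held 72.7% in SSCs and 57.5% in FGSCs. The difference in shares was 15.2 percentage points, and the main isoform was the same.

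Of a list of 40 germ cell genes, 2 had a member locus within 10 kb, which is 0.722% of the 277 loci, beside 0.343% (44) of the other intergenic loci. None of 17 testis somatic and 10 ovary somatic genes had a member locus this close, beside 6 of the other loci near a testis somatic gene and 2 near an ovary somatic gene. XLOC_029395 lay 263 bp from the start of Nanos1, which encodes an RNA-binding repressor of translation in germ cells. Its sum was 2.61 FPKM in SSCs, against 1.08 in FGSCs (log2 value 0.98, and 1.60 with equal medians), with 1.64 FPKM in SSCs and 0.833 in FGSCs for TCONS_00076237 and 0.971 FPKM in SSCs, against 0.243 in FGSCs for TCONS_00076236. Both isoforms had the higher value in SSCs, and the main isoform was the same (62.9% in SSCs and 77.4% in FGSCs). XLOC_007958 lay 1510 bp from Lhx1, a homeobox gene expressed in SSCs, and 227 bp from the start of Aatf, which encodes an antagonist of apoptosis. It reached 0.344 FPKM in SSCs, against 0.998 in FGSCs, and its TCONS_00022472 was listed at 0 in SSCs and had 0.391 FPKM in FGSCs. The mRNAs of the neighbouring coding genes were not analysed here.

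The loci were longer than those of other intergenic transcripts, with a median of 6144 bp (1091 to 247287 bp), against 940 bp at 12837 other autosomal intergenic loci. Their GC content was similar, with medians of 43.8% and 44.4%, and their share of annotated repeats was 25.7%, against 21.8%. A lncRNA gene of GENCODE M21 overlapped 72 of the 277 loci (26.0%), against 9.92% of the other loci, and 64.6% overlapped no GENCODE gene, against 79.1%. Because a longer locus meets an annotated gene more readily, the other loci of at least 1 kb were also taken: 12.7% of these overlapped a lncRNA gene. They were still shorter, with a median of 1761 bp, so length was not matched. A coding gene overlapped 30 of the 277 loci (10.8%), against 11.4% of the other loci and 16.0% of those of at least 1 kb. Strand and exons are not given in the table, so these transcripts may lie in introns or on the opposite strand. AATAAA or TTTATT stood at an end of 36 loci (13.0%), against 8.90% of the other loci and 10.3% of those of at least 1 kb.

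Distance to a coding gene went with the cell types in which a gene was measured. The start of a coding gene lay within 1 kb of 76 of the 277 loci (27.4%), against 15.6% of the other loci and 20.6% of those of at least 1 kb. A start inside a locus was counted as within 1 kb. The other loci of at least 1 kb had a median length of 1761 bp, against 6144 bp, so length was not matched. Of the genes with at least 0.5 FPKM in SSCs alone, 5 of 39 (12.8%) had a start this close. In FGSCs alone it was 30 of 151 (19.9%) and in both cell types 32 of 61 (52.5%). The median distance to a coding start was 63331 bp for SSCs alone, 39516 bp for FGSCs alone and 490 bp for both. Intergenic genes with a single transcript showed the same order, with 15.4% for SSCs alone, 18.3% for FGSCs alone and 49.8% for both, so this was no feature of multi-isoform genes alone. At loci of at least 1 kb these single-transcript genes reached 22.8% for SSCs alone, 24.1% for FGSCs alone and 58.8% for both. Each of these was above the share of the multi-isoform genes, all of whose loci were this long. For genes measured in neither it was 14.3%, against 18.2% of the multi-isoform genes. In 54 loci a stretch of up to 1 kb separated the locus from the coding start. These stretches had a median of 8.80 CG per 100 bases, against 6.83 in 1352 stretches at other intergenic loci and 2.33 in the RefSeq promoter windows of all genes. At least 5 CG per 100 bases were found in 85.2% of them, against 62.9% at other intergenic loci and 34.6% of the promoters. The stretches differed in length, with a median of 155 bases at the multi-isoform loci, 261.5 at the other loci and 300 in the promoter windows, so they did not cover the same distances from a start. All stretches lay before coding starts, whereas the promoter windows were not filtered for coding genes.

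**Figure D5:**
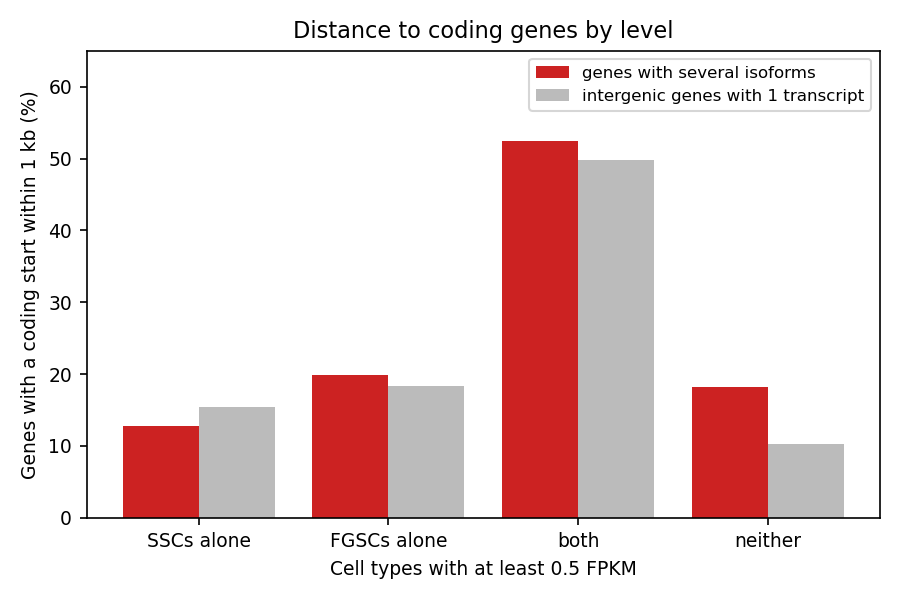
Share of genes (percent) with the start of a coding gene inside the locus or within 1 kb of it, by the cell types in which the gene had at least 0.5 FPKM, for genes with several isoforms (red) and intergenic genes with 1 transcript (grey). Bars for both cell types reach 52.5% and 49.8%, and those for SSCs alone 12.8% and 15.4%. The grey bars include genes at loci under 1 kb.

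In the 15 genes with 1 intergenic member the partner transcripts were 8 antisense transcripts of annotated genes, 6 that shared a splice junction with an annotated transcript and 3 with another exonic overlap. At XLOC_000410 the intergenic transcript had 1.63 FPKM in SSCs, against 0.115 in FGSCs, and its antisense partner 4.51 FPKM in SSCs and 0.0249 in FGSCs. Both were higher in SSCs. At XLOC_022636 the intergenic transcript had 0.00845 FPKM in SSCs, against 0.623 in FGSCs, and its partner 0.0329 FPKM in SSCs and 7.20 in FGSCs, both higher in FGSCs. At XLOC_038687 the partner was antisense to Cdkn2a, which encodes inhibitors of the cell cycle, with 1.48 FPKM in SSCs, against 1.27 in FGSCs, and the intergenic transcript had 1.35 FPKM in SSCs, against 0.749 in FGSCs.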

How the data were processed

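The authors removed ribosomal RNA, made strand-specific libraries (3 SSC, 3 FGSC), aligned reads to mm10 with TopHat2, assembled transcripts with Cufflinks and estimated expression with Cuffdiff 2.1.1, per the labels, the submitters' processing notes and the study's methods. The deposited values are FPKM, 1 per transcript and cell type. Their fold changes, p-values and q-values stand in further columns and were not used. Read totals of the libraries, which the study gives, were not used here, and the table gives no read counts per transcript, so no counting interval could be calculated.

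Members were selected by class code, lines per gene and per locus, and FPKM was summed per gene. Loci were shifted to 1-based starts (578 of 2591 reference transcripts started 1 base after the listed start, 4 at it) and compared with the GRCm38 genome, RefSeq and GENCODE M21 (Python 3.11.15, pandas 2.3.3, NumPy 2.4.6, pysam 0.24.0). Sequences came from the RefSeq genome. Shares and switches were tested on simulated data.

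The members, gene lists and definitions were chosen with earlier results of these data known. Named genes were, by rule, the 8 largest switches, the 4 highest sums and 4 largest log2 values (at least 1 FPKM) per cell type, the 4 genes whose shares differed least among the 5 with at least 1 FPKM in both and at least 20% outside the main isoform, genes with opposed isoforms, and genes within 10 kb of a listed gene. The other 6 switches, XLOC_038423, the 3 genes with 1 intergenic member, and the 1 kb, 5 kb, 2 FPKM, 60%, 90% and CG limits were chosen after values were seen. Alternatives varied the limits, pseudocount, scaling, class codes and locus limit.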

Additional observations from a re-analysis of the deposited data

How the results depend on the processing

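No paired analysis was possible because the table holds 1 value per cell type, pooled over the numbered libraries, and no library could be left out for the same reason. The 14 switches became 66 of 201 genes with no limit on FPKM, 4 of 18 at 1 FPKM or more, 0 of 5 at 2 FPKM or more (a limit chosen after seeing the data), 4 at a difference of at least 50 percentage points, 25 of 109 with no limit on transcripts per locus and 8 of 28 with every isoform at status OK. They were 15 with any difference and 14 of 64 over all class codes. Among the other genes of the table with at least 2 transcripts, 20 of 95 were switches at 1 FPKM or more. At 2 FPKM or more 7 of 41 of them were switches. The remaining alternatives were not run on these other genes. The median main share was 75.4% in SSCs and 65.4% in FGSCs with no limit, and 69.7% in SSCs and 62.5% in FGSCs at 1 FPKM or more. Genes higher in FGSCs by more than 1 log2 unit numbered 162 with a pseudocount of 0.1, 71 with a pseudocount of 1, 145 of 262 with no limit, 98 of 171 at 1 FPKM or more, 93 with equal medians and 90 with quantile normalization, against 145 of 251. With the pseudocounts of 0.1 and 1 these were 64.5% and 28.3%, beside 44.7% and 10.6% of all genes. With no limit and at 1 FPKM or more they were 55.3% and 57.3%, beside 20.9% and 36.8% of all genes. Genes higher in SSCs numbered 32 to 54 over all alternatives. With the pseudocounts of 0.1 and 1 these were 19.1% and 12.7%, beside 32.1% and 11.2% of all genes. With no limit and at 1 FPKM or more they were 17.2% and 22.8%, beside 15.7% and 36.4% of all genes. The median log2 value was −1.86 and −0.74 with pseudocounts of 0.1 and 1, −1.07 with no limit, −1.11 at 1 FPKM or more, −0.70 with equal medians and −0.71 with quantile normalization. Genes with isoforms in opposite directions numbered 8 and 0 with pseudocounts of 0.1 and 1, and 1 with equal medians and 1 with quantile normalization, against 2. The cause was not tested. Among the 29 named genes the log2 value crossed 1 in 7 with equal medians, 2 with quantile normalization, 2 with a pseudocount of 0.1 and 4 with a pseudocount of 1, and none of those past 1 changed sign. Within 1, XLOC_002280 (0.07) and XLOC_049538 (0.06) were above 0 with equal medians and below 0 otherwise. The reads behind each value are not given in the table, and the sum was at least 2 FPKM in 25 of 100 genes in SSCs and 36 of 212 in FGSCs whose shares were summarised.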
